A study of Ceratotherium simum simum with 6 samples.

Results

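Regulators of G protein signalling were described in granulosa cells, the follicle cells that enclose and nourish the oocyte, of 2 southern white rhinoceroses (Ceratotherium simum simum). The set was 10 gene names, RGS2, RGS3, RGS5, RGS10, RGS12, RGS14, RGS16, RGS19, GPSM1 and GPSM2, chosen by name from the table of transcript positions. Of these, 9 were found among 25906 loci, and RGS14 is not analysed here. A locus is a named gene together with any unnamed gene assembled over the same exons on the other strand. The measured value used in the choice was the total count at names carried by several loci. It bore on RGS12 alone, a name on 3 loci of which the other 2 had no counts in any library. The animals, called Rhino 1 and Rhino 2, were labelled wild type, in vivo and Pre IVM (before in vitro maturation of the oocyte), and each had 3 RNA-seq libraries. With 1 animal in each group, no condition was compared other than the animal itself. The labels do not state whether the 3 libraries of an animal were separate samples of cells or of 1 RNA. A p-value therefore reflects only how far these libraries spread, and that spread may be technical.

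Heterotrimeric G proteins carry the signals of receptors such as those for FSH and LH, which in granulosa cells act mainly through the stimulatory G alpha subunit and cyclic AMP. RGS proteins bind the active, GTP-bound G alpha subunit and speed its hydrolysis of GTP, which ends the signal. GPSM proteins carry GoLoco motifs, short stretches that hold inhibitory G alpha subunits in the GDP-bound form and apart from G beta and gamma. GPSM2, also called LGN, uses this binding to anchor the mitotic spindle at the cell cortex.

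Library totals were between 672410 counts (Rhino 1 replicate 2) and 13288936 counts (Rhino 1 replicate 1). A single count was worth 0.0753 CPM (counts scaled to a library total of 1000000) in the deepest library and 1.49 CPM in the smallest. Rhino 1 replicate 1 stood apart, since 94.5% of its counts lay on named genes, whereas the other 5 libraries had 2.31 to 2.61% there and 86.1 to 90.2% on the unnamed models of the opposite strand. Rhino 1 replicate 2 also lacked loci that the others held: of 4666 loci at 20 CPM or more in every other library, 361 (7.74%) were at 0 in it. The label was checked against markers of the cell type. All 15 granulosa markers had counts, with summed levels of 29829 to 46092 CPM in Rhino 1 against 27734 to 42263 CPM in Rhino 2. SERPINE2, which encodes the protease inhibitor protease nexin-1, and INHA, the inhibin alpha subunit, led them at 13153 to 24472 and 5264 to 12760 CPM. Within this list the animals differed. AMH, anti-Müllerian hormone, was higher in Rhino 2 (83.7 ± 6.32 CPM in Rhino 1 against 349 ± 74.4 CPM, a log2 fold change of 2.16 ± 0.22, adjusted p = 0.0192). CYP19A1, the aromatase gene, had 2413 ± 1340 against 226 ± 40.8 CPM (-3.34 ± 0.54, adjusted p = 0.0536), and the inhibin beta genes INHBA (-1.56, adjusted p = 0.0952) and INHBB (-1.64, adjusted p = 0.156, all edgeR) also had ranges that lay apart with Rhino 1 higher. Their part in the differences described next was not tested. The 10 oocyte markers had no opposite-strand model, so the other 5 libraries, with 2.31 to 2.61% of their counts on named genes, could hardly show them. In Rhino 1 replicate 1, 9 had no counts, ZP1 among them, and GDF9 stood at 3.91 CPM.

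Of the 9 loci, 6 passed the filter on low counts and were tested between the animals. GPSM1 and RGS2 were higher in Rhino 2. GPSM2, RGS3, RGS5 and RGS12 had lower fitted values there. GPSM1 alone passed the threshold (adjusted p under 0.05, edgeR's quasi-likelihood test with Benjamini-Hochberg adjustment over all 8532 loci), which 0.551% of the loci tested did. At an unadjusted p under 0.05 there were 4 (GPSM1, GPSM2, RGS2 and RGS5), where 12.9% of the loci tested lay. The ranges of the animals lay apart for GPSM1, GPSM2 and RGS2, as they did for 24.4% of the loci tested. The median log2 fold change (Rhino 2 over Rhino 1, as throughout) was -0.48 over the 6 genes and 0.04 over all loci tested.

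**Figure D1:**
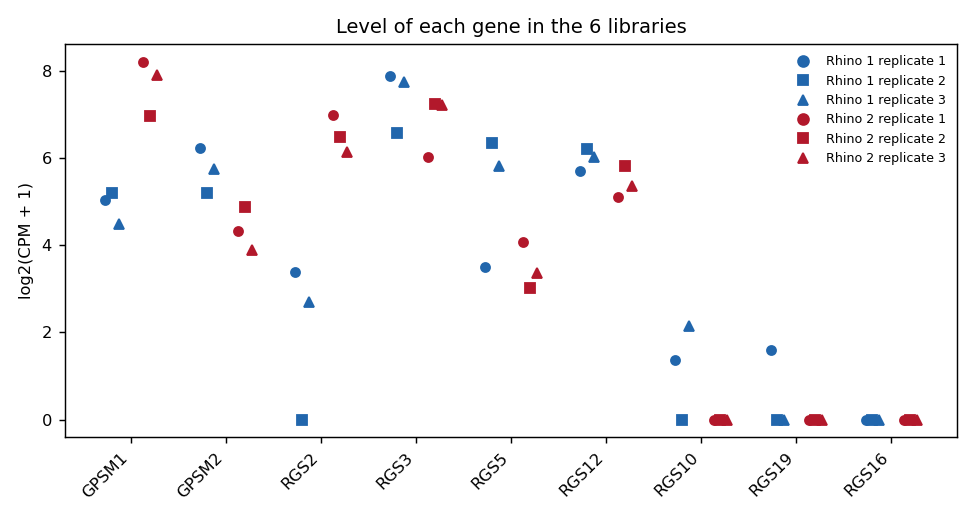
Level of each of the 9 loci as log2(CPM + 1) in each library; colour marks the animal and shape the replicate. GPSM1 and RGS2 lay higher in all 3 libraries of Rhino 2, GPSM2 lay higher in all 3 of Rhino 1, and RGS10, RGS19 and RGS16 were at or near 0.

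GPSM1, also called AGS3, encodes a protein with GoLoco motifs that binds inhibitory G alpha subunits independently of a receptor. It lies on scaffold 29 at 2064130 to 2097843 on the plus strand, with 14 exons and 3427 bases in its annotated transcript. It stood at 31.8, 35.7 and 21.4 CPM in replicates 1, 2 and 3 of Rhino 1 (422, 24 and 31 counts). In Rhino 2 it stood at 296, 125 and 241 CPM (451, 88 and 260 counts). Every library of Rhino 2 was above every library of Rhino 1, and the lowest of Rhino 2 was replicate 2. The means were 29.6 ± 7.39 and 221 ± 87.3 CPM (SD, n = 3), and the log2 fold change was 3.00 ± 0.39 (SE; adjusted p = 0.0397, edgeR). The call rested on all 6 libraries: without any 1 of them the fold change stayed between 2.72 and 3.28, but the adjusted p was 0.0518 to 0.195.

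The transcript models of GPSM1 divided the counts in Rhino 1 replicate 1 almost evenly. The annotated transcript had 213 of the 422 counts (50.5%, 95% Wilson interval 45.7 to 55.2). The other 209 (49.5%, 44.8 to 54.3) lay on a model of 13 exons that begins 8.76 kb inside the gene and ends at the same base. Its exons all lie within annotated exons, so reads can fit both models. The intervals do not cover how such reads were divided. In the other libraries with counts per transcript, an opposite-strand model of 14 exons held all counts except in Rhino 2 replicate 3. There, 36 of 260 counts (13.8%, 10.2 to 18.6) lay on a model of 4 exons over the start of the gene. Of the 15 introns in the opposite-strand models, 13 were identical to annotated introns of GPSM1.

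GPSM2 showed the opposite order. It lies on scaffold 2 at 58970761 to 59005310 on the minus strand, with 14 exons and 2287 annotated bases. Rhino 1 had 74.5, 35.7 and 53.1 CPM (990, 24 and 77 counts), and Rhino 2 had 19.0, 28.4 and 13.9 CPM (29, 20 and 15 counts). The ranges did not overlap, but the gap between Rhino 1 replicate 2 and Rhino 2 replicate 2 was a few counts wide. The means were 54.4 ± 19.4 and 20.5 ± 7.36 CPM, and the log2 fold change of -1.35 ± 0.49 did not pass the threshold (adjusted p = 0.301, edgeR).

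Genes of the cell cycle differed in the same direction as GPSM2. All 17 tested genes of that list had lower fitted values in Rhino 2, with a median log2 fold change of -2.36, and 6 passed the threshold. Among them were KIF23, a kinesin of cytokinesis (-3.15 ± 0.33, adjusted p = 0.0192), and BUB1B, a spindle checkpoint kinase (-3.12 ± 0.42, adjusted p = 0.0420). KIF11, the kinesin that separates the spindle poles, had -2.36 ± 0.32 (adjusted p = 0.0420), and the mitotic kinase PLK1 had -2.29 ± 0.24 (adjusted p = 0.0192, all edgeR). Over all pathway lists 9 genes were called with the 6 libraries, and 0 to 7 with 1 library left out. The summed level of the cell cycle list was 3443 to 4711 CPM in Rhino 1 against 581 to 976 CPM in Rhino 2. The list was drawn up with results of these libraries known, so it is no independent evidence, and its part in the GPSM2 values was not tested. In bulk samples such as these, fewer cells of a kind and less RNA per cell cannot be told apart.

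The partners of GPSM2 at the spindle, which link it to dynein and to cell polarity, were spread around 0. Of the 16 genes listed, 10 were tested, 4 had a positive and 6 a negative fold change, none passed the threshold and the median was -0.09. Of these, PARD3 (1.04, adjusted p = 0.134) and AFDN (0.65, adjusted p = 0.162, both edgeR), named after their values were seen, had ranges that lay apart with Rhino 2 higher. DYNC1H1, the dynein heavy chain, stood at 521 to 784 CPM in Rhino 1 against 387 to 645 CPM in Rhino 2 (a log2 fold change of -0.39, adjusted p = 0.702). EPB41L2, a membrane skeleton protein of the cortex, stood at 608 to 837 and 604 to 669 CPM (-0.06, adjusted p = 0.983, both edgeR).

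The counts of GPSM2 lay on models of different extent in different libraries. In Rhino 1 replicate 1, 970 of 990 counts (98.0%, 96.9 to 98.7) were on a model of 15 exons that starts 9.95 kb upstream of the annotated transcript and contains its 13 introns. The annotated transcript itself had 15 counts, so the longer model held 50.2 times as many per kb. All annotated exons lie within the longer model, so their reads can fit both, and this ratio depends on how they were divided. On the opposite strand GPSM2 was assembled as 4 separate fragments of 1045, 278, 389 and 223 bases, and their 8 introns were all identical to those of the named strand. The fragment at the 3′ end, of 1045 bases, held 75% of the counts of the locus in Rhino 1 replicate 2, 53.2% in Rhino 1 replicate 3, and 24.1%, 75% and 100% in replicates 1, 2 and 3 of Rhino 2. On that fragment alone the levels were 26.8 and 28.3 CPM in replicates 2 and 3 of Rhino 1 and 4.59, 21.3 and 13.9 CPM in Rhino 2.

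**Figure D2:**
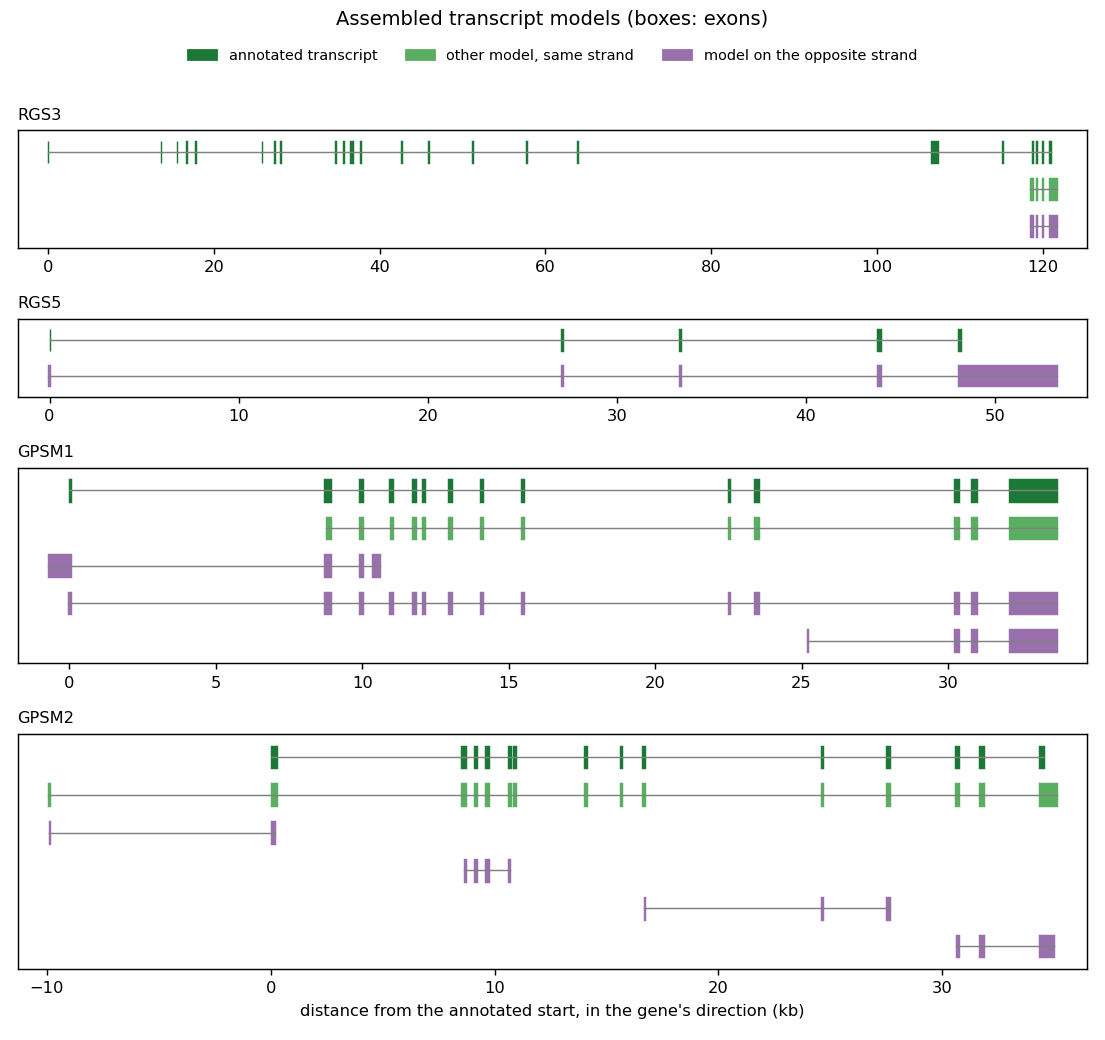
Assembled transcript models of RGS3, RGS5, GPSM1 and GPSM2, with exons as boxes, plotted by distance in kb from the annotated start in the direction of the gene. RGS3 had 1 short model on each strand over its last exons, the RGS5 model of the opposite strand ended in a long last exon, and GPSM2 was in 4 fragments on the opposite strand.

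RGS2, a small RGS protein that acts mainly on the Gq class of G alpha subunits, was low in Rhino 1 and higher in every library of Rhino 2. The gene lies on scaffold 36 at 9104778 to 9107438 on the minus strand, in 5 exons. Its levels were 9.41, 0 and 5.52 CPM in Rhino 1 (125, 0 and 8 counts) against 127, 88.1 and 69.5 CPM in Rhino 2 (194, 62 and 75 counts). The values of Rhino 2 all lay above those of Rhino 1. By counting error alone the 0 in Rhino 1 replicate 2 allowed up to 4.46 CPM (3 counts), but this library was at 0 at 346 of 4511 loci that were modelled on both strands and had 20 CPM or more in every other library, so its 0 is no firm limit. Without it the log2 fold change was 3.66 (adjusted p = 0.0862, edgeR). The means were 4.98 ± 4.73 and 95.0 ± 29.5 CPM.

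The log2 fold change of RGS2, 4.07 ± 0.81, did not pass the threshold (adjusted p = 0.0818, edgeR). It passed with no filter on low counts (adjusted p = 0.0021), as 2.18% of loci did, and among loci modelled on both strands (adjusted p = 0.0468), as 1.71% did. It also passed in DESeq2 (adjusted p = 1.8e-05), where 7.34% of loci were called, and in limma-voom (adjusted p = 0.0164), where 8.93% were. ADCY1, an adenylyl cyclase gene, was likewise at 0 in Rhino 1 replicate 2, although replicates 1 and 3 of that animal had 95.1 and 51.7 CPM. All 4 introns of the opposite-strand RGS2 model were identical to annotated introns, but its exons were 2.05 times as long (1305 against 636 bases). Per kb of the model on the counted strand the levels were 14.8, 0 and 4.23 CPM in Rhino 1 against 97.6, 67.5 and 53.3 CPM in Rhino 2, so the order held.

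RGS2 is known as an early response gene in several cell types, and immediate early genes differed in the same direction. Of 18 tested, 16 had a positive fold change, 3 passed the threshold, and the median was 1.36. The 3 were NR4A1, an orphan nuclear receptor (4.73 ± 0.24, adjusted p = 0.0020), BTG2, an antiproliferative factor (3.71 ± 0.53, adjusted p = 0.0483), and JUNB, an AP-1 subunit (2.10 ± 0.29, adjusted p = 0.0458, all edgeR). The summed level of the list was 2905 to 4865 CPM in Rhino 1 against 9775 to 10633 CPM in Rhino 2. This list too was drawn up with earlier results known, and its part in the RGS2 values was not tested.

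RGS5, a small RGS protein best known from the pericytes of small blood vessels, varied more within Rhino 1 than any other of the 6 tested genes apart from RGS2, relative to its mean. It lies on scaffold 2 at 32540313 to 32588534 on the plus strand, in 5 exons. Rhino 1 had 10.4, 80.3 and 55.9 CPM (138, 54 and 81 counts), and Rhino 2 had 15.7, 7.11 and 9.27 CPM (24, 5 and 10 counts). Replicates 2 and 3 of Rhino 1 lay above all of Rhino 2, and replicate 1 lay among them. The means were 48.9 ± 35.5 and 10.7 ± 4.50 CPM, and the log2 fold change of -2.03 ± 0.82 did not pass the threshold (adjusted p = 0.359, edgeR). Without Rhino 1 replicate 1 it was -2.50 (adjusted p = 0.103), and by limma-voom it was -0.38 (adjusted p = 0.928).

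The length of the RGS5 model differed between the strands more than for almost any other locus. The annotated transcript, which held every count of Rhino 1 replicate 1, has 546 bases. The opposite-strand model, which held every count of the other 5 libraries, has 5697 bases, 10.4 times as many, most of them in a last exon that runs past the annotated end. Over the 10525 named loci with an opposite-strand model the median ratio was 1.02, and 0.152% of them had a ratio as large as that of RGS5. Per kb of the model on the counted strand, Rhino 1 had 19.0, 14.1 and 9.81 CPM and Rhino 2 had 2.76, 1.25 and 1.63 CPM. On this scale Rhino 1 replicate 1 was the highest library and the ranges no longer overlapped, with means of 14.3 ± 4.61 and 1.88 ± 0.789 CPM per kb.

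**Figure D3:**
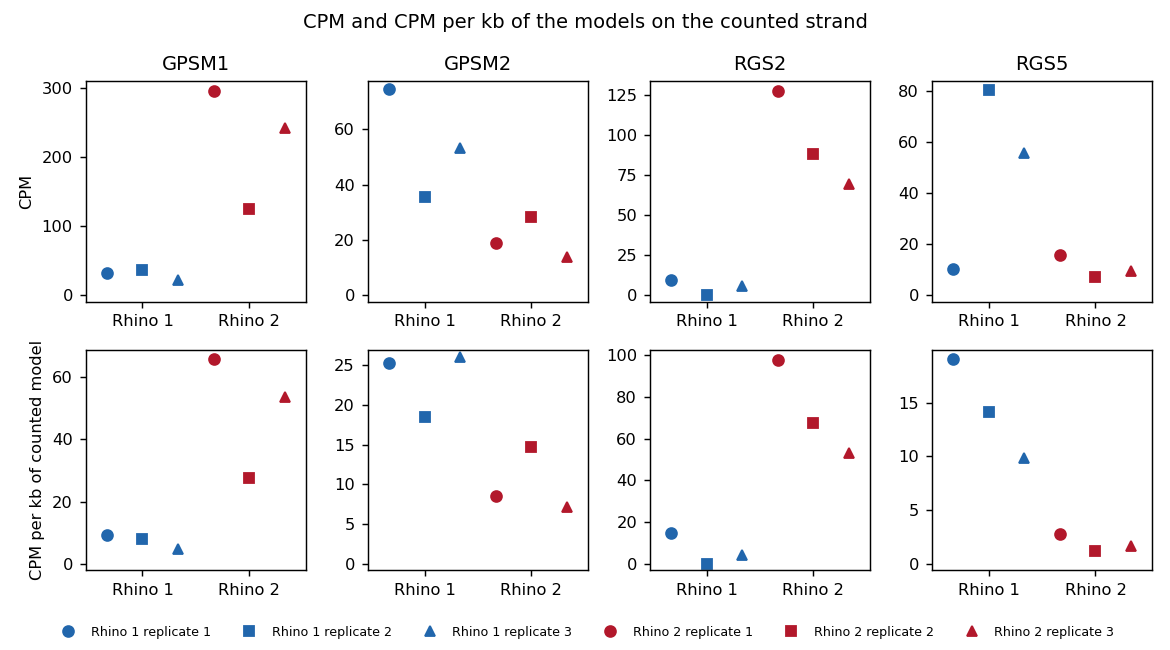
CPM (top row) and CPM per kb of the models on the strand that held the counts (bottom row) of GPSM1, GPSM2, RGS2 and RGS5 in each library. RGS5 in Rhino 1 replicate 1 moved from 10.4 CPM, among the libraries of Rhino 2, to 19.0 CPM per kb, above all others.

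Genes that mark pericytes and smooth muscle, cell types in which RGS5 is known, were read beside it. Of 11 matched genes, 3 were at 0 in all libraries. PDGFRB, the receptor that defines pericytes, had 1.13, 0 and 0 CPM in Rhino 1 against 4.59, 0 and 0 CPM in Rhino 2, and 3 of the list (CSPG4, NOTCH3 and ABCC9) had counts in Rhino 1 replicate 1 alone. Those 6 had no opposite-strand model, so their 0 in the other 5 libraries says little about their RNA. The summed level was 399 to 2552 CPM in Rhino 1 against 581 to 940 CPM in Rhino 2. Smooth muscle actin, ACTA2, made up most of the highest value, with 39.6, 2292 and 393 CPM in Rhino 1 against 9.84, 41.2 and 0 CPM in Rhino 2. The smooth muscle myosin gene MYH11 had the other order, with 112 to 258 CPM in Rhino 1 against 526 to 900 CPM in Rhino 2 (a log2 fold change of 2.01 ± 0.38, adjusted p = 0.0737, edgeR). CNN1 had 76.9, 149 and 78.7 CPM in Rhino 1 against 17.1, 14.2 and 24.1 CPM in Rhino 2 (-2.32 ± 0.39, adjusted p = 0.0581, edgeR). Of the 4 genes of this list that were tested, 3 had a negative and 1 a positive fold change, and none passed the threshold.

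Markers of other cells of the follicle wall also varied within Rhino 1. The theca and stroma list summed to 679, 6622 and 1485 CPM in Rhino 1 and to 621 to 1271 CPM in Rhino 2, with the theca markers CYP17A1 and INSL3 at 0. Both lack an opposite-strand model, so that 0 bears mainly on Rhino 1 replicate 1. Its leading genes were the fibrillar collagen genes COL1A2 (506, 2909 and 880 CPM in Rhino 1, 460 to 1178 CPM in Rhino 2) and COL1A1 (4.67, 2870 and 353 CPM in Rhino 1, and 0 in Rhino 2). Rhino 1 replicate 2, the library with the most of ACTA2 and of both collagen genes, also had the highest RGS5 CPM. Per kb of the counted model, RGS5 was instead highest in Rhino 1 replicate 1, the library of that animal with the lowest CPM of all 3 genes. Those 3 genes were not put on the per kb scale. The part of these cells in the RGS5 values was not tested. Endothelial markers summed to 57.3 to 112 CPM in Rhino 1 against 169 to 257 CPM in Rhino 2, nearly all from TEK, the angiopoietin receptor gene. Only 3 of the 9 matched endothelial genes, TEK and VWF among them, were modelled on both strands. The sums thus say little about the rest of the list outside Rhino 1 replicate 1. VWF, a defining endothelial gene, had 3.76 CPM in Rhino 1 replicate 1, 3.94 CPM in Rhino 2 replicate 1 and 0 in the other 4 libraries.

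RGS4, which is no member of the set, is the neighbour of RGS5, 59.4 kb away on scaffold 2, and encodes another small RGS protein. It stood at 19.6, 83.3 and 57.3 CPM in Rhino 1 against 66.3, 56.8 and 52.9 CPM in Rhino 2 (a log2 fold change of 0.29 ± 0.50, adjusted p = 0.949, edgeR). Its low value too was in Rhino 1 replicate 1, where its model has 618 bases against 2734 on the opposite strand. Per kb of the counted model the 6 libraries lay between 19.3 and 31.8 CPM and the animals overlapped.

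RGS3, which acts on Gi and Gq alpha subunits and is made as long and short isoforms, had the highest CPM of the 9 loci in Rhino 1. It lies on scaffold 29 at 22302973 to 22423912 on the minus strand, with 23 annotated exons and 3210 bases. Its levels were 235, 95.2 and 216 CPM in Rhino 1 (3122, 64 and 313 counts) against 64.3, 151 and 149 CPM in Rhino 2 (98, 106 and 161 counts). The ranges overlapped, with the lowest value in Rhino 2 replicate 1. The means were 182 ± 75.8 and 121 ± 49.5 CPM, and the log2 fold change was -0.51 ± 0.47 (adjusted p = 0.838, edgeR).

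Most of the RGS3 counts lay on a short form. In Rhino 1 replicate 1, a model of 5 exons and 1389 bases that starts 118 kb downstream of the annotated start held 2792 of 3122 counts (89.4%, 88.3 to 90.5). It spans 3.22 kb, shares 3 of its 4 introns with the annotated transcript, and had 19.6 times as many counts per kb as that transcript. On the opposite strand the short form was the only model, with 5 exons and 1439 bases, and it held all counts of the other 5 libraries. All 4 of its introns were identical to introns of the named strand.

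RGS12, a large RGS protein that also carries a GoLoco motif and so joins both classes, had the smallest spread over the 6 libraries relative to its mean. It lies on scaffold 8 at 2625429 to 2731320 on the plus strand, with 17 exons and 4266 bases. Rhino 1 had 51.1, 72.9 and 64.2 CPM (679, 49 and 93 counts), and Rhino 2 had 33.5, 55.4 and 39.9 CPM (51, 39 and 43 counts). The ranges overlapped through Rhino 1 replicate 1 and Rhino 2 replicate 2. The means were 62.7 ± 11.0 and 42.9 ± 11.3 CPM, and the log2 fold change was -0.44 ± 0.33 (adjusted p = 0.736, edgeR).

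On the opposite strand RGS12 had models of 15, 2 and 4 exons, with 14 of 16 introns identical to annotated ones. In Rhino 1 replicate 3, 76 of 93 counts (81.7%, 72.7 to 88.3) were on the model of 15 exons and 16 (17.2%, 10.9 to 26.1) lay on the model of 4 exons near the 3′ end. In Rhino 2 the model of 4 exons held 16 of 39 counts in replicate 2 (interval 27.1 to 56.6%) and 22 of 43 in replicate 3 (51.2%, 36.8 to 65.4). In Rhino 1 replicate 2 all 49 counts were on the model of 15 exons. Per kb of the counted models, RGS12 had 12.5 ± 0.932 CPM in Rhino 1 (mean ± SD, n = 3) and 6.24, 10.3 and 7.43 CPM in Rhino 2, so that the animals lay apart on that scale.

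The other 3 genes had few or no counts and were not tested. RGS10, a small RGS protein of inhibitory G alpha subunits known from leukocytes and microglia, had 21 counts in Rhino 1 replicate 1 (1.58 CPM), 5 in Rhino 1 replicate 3 (3.45 CPM) and 0 elsewhere (scaffold 6, 13383287 to 13417855, plus strand). RGS19, also called GAIP, had 27 counts in Rhino 1 replicate 1 (2.03 CPM) and 0 elsewhere (scaffold 22, 50938564 to 50941019, minus strand). It had no joined opposite-strand model. Its 0 in the other 5 libraries thus says little about its RNA, apart from the bases it shares with an unnamed model given below. RGS16, a small RGS protein induced in many cells by activation, had no counts in any library (scaffold 2, 17614703 to 17618608, minus strand). Its models cover both strands, and by counting error alone the counts of 0 allowed up to 0.226 CPM in Rhino 1 replicate 1 and 1.97 to 4.46 CPM in the others. A listed 0 is no proof of absence here. GNAS, the stimulatory G alpha gene, was matched to a locus with the UniProt-style entry name GNAS1, which was at 0 in all 6 libraries. An entry name need not cover every product of a gene, so this 0 need not be that of the stimulatory subunit. The GNAS1 locus also had no opposite-strand model, whereas RGS16 had one, so the cases differ.

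The 50% rule for joining strands bore on RGS10 and RGS19. The opposite-strand model of RGS10 covered 73.1% of the shorter exonic length, the lowest share among the joined models of the set. An unnamed model over RGS19 covered 44.9%, just outside, and held 3 counts in all, so few counts lay on the 261 bases they share. Leukocyte markers, given here because RGS10 is known from those cells, summed to 176, 8.92 and 2.07 CPM in Rhino 1 against 13.8, 0 and 34.3 CPM in Rhino 2, led by CD74 and the macrophage marker CD68. CD74, the invariant chain of antigen presentation, had 70.1, 8.92 and 0 CPM in Rhino 1 against 0, 0 and 7.42 CPM in Rhino 2, and CD68 had 12.9, 0 and 2.07 against 13.8, 0 and 26.9 CPM. Of the 11 matched leukocyte genes, 8 had counts in Rhino 1 replicate 1 alone, but only 3 of the 11 were modelled on both strands, so neither that count nor the sums compare the libraries. Their part in the RGS10 counts was not tested.

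Levels were compared between genes per kb of all exonic sequence of a locus. Over the 6 libraries RGS2 came first at 37.9 ± 40.1 CPM per kb (mean ± SD, n = 6), followed by RGS3 at 36.7 ± 16.0 and GPSM1 at 27.7 ± 26.2 CPM per kb. GPSM2 had 12.7 ± 7.73, RGS12 had 9.41 ± 2.62 and RGS5 had 5.23 ± 5.41 CPM per kb. RGS10 and RGS19 came last at 1.22 ± 2.08 and 0.396 ± 0.970 CPM per kb, with RGS16 at 0. All 7 pairs of neighbours in this order, RGS16 left out, had overlapping ranges over the 6 libraries.

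The order differed between the animals. In Rhino 1 it was RGS3 (44.0 ± 18.3 CPM per kb), GPSM2 (18.5 ± 6.59), RGS12 (11.2 ± 1.95), RGS5 (8.58 ± 6.23), GPSM1 (6.56 ± 1.64), RGS2 (3.78 ± 3.59), RGS10 and RGS19, and all 7 neighbouring pairs overlapped. In Rhino 2 it was RGS2 (72.1 ± 22.4 CPM per kb), GPSM1 (48.9 ± 19.3), RGS3 (mean 29.3, range 15.5 to 36.4), RGS12 (7.65 ± 2.01), GPSM2 (6.94 ± 2.50) and RGS5 (1.88 ± 0.789). There the ranges of RGS3 and RGS12, and of GPSM2 and RGS5, lay apart, and the other 3 neighbouring pairs overlapped. On this length, RGS2 and RGS3 lay apart within each animal, in opposite orders. Over the length of the counted models they overlapped in Rhino 2, at 53.3 to 97.6 CPM per kb for RGS2 and 44.7 to 105 for RGS3. Over the 6 libraries and the length of the counted models, RGS3 came before RGS2, at 87.8 ± 39.1 and 39.6 ± 39.4 CPM per kb.

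**Figure D4:**
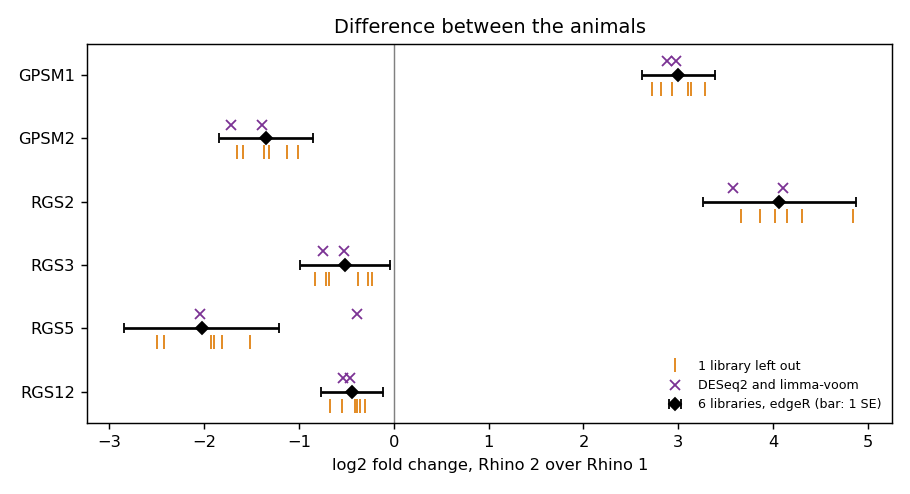
Fitted log2 fold change of the 6 tested genes between the animals, with bars of 1 SE, the fits that leave out 1 library below each, and the DESeq2 and limma-voom estimates above. GPSM1 and RGS2 lay right of 0 and the other 4 genes left of 0 in every fit drawn, and the estimates of RGS5 ranged from -2.50 to -0.38.

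No G protein subunit passed the threshold. Of 13 G alpha genes 7 were tested, with a median log2 fold change of 0.55. The inhibitory subunit gene GNAI2, whose product RGS and GPSM proteins bind, stood at 217 to 292 CPM in Rhino 1 against 159 to 224 CPM in Rhino 2 (-0.25, adjusted p = 0.836). GNA12 stood at 202 to 225 and 175 to 236 CPM (-0.01, adjusted p = 0.999). Of the 9 tested G beta and gamma genes, 8 had a negative fold change and the median was -0.27. GNB1 stood at 385 to 540 and 298 to 405 CPM (-0.25, adjusted p = 0.769), and GNB2 at 269 to 296 and 162 to 185 CPM, ranges that lay apart (-0.60, adjusted p = 0.194, all edgeR).

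Upstream, the receptor list held 21 genes, of which 19 matched and 5 were tested, with none past the threshold. FSHR, the FSH receptor, stood at 66.9 to 189 CPM in Rhino 1 against 148 to 237 CPM in Rhino 2 (a log2 fold change of 0.74 ± 0.44, adjusted p = 0.623). LHCGR, the LH receptor, stood at 180, 56.5 and 161 CPM in Rhino 1 against 22.3, 21.3 and 38.0 CPM in Rhino 2, ranges that lay apart (-2.21 ± 0.52, adjusted p = 0.123). Among the 5 tested receptor kinases and arrestins the median was -0.02. GRK3, a receptor kinase, stood at 34.2 to 73.9 and 38.0 to 61.1 CPM (-0.02, adjusted p = 0.959), and the arrestin relative ARRDC3 at 58.0 to 93.5 and 99.5 to 290 CPM (1.45 ± 0.42, adjusted p = 0.186, all edgeR).

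Downstream, the adenylyl cyclase gene ADCY6 stood at 75.8 to 154 and 114 to 152 CPM (0.23, adjusted p = 0.924), and ADCY1 at 0 to 95.1 and 107 to 206 CPM (1.73 ± 1.02, adjusted p = 0.620). The cyclic AMP phosphodiesterase gene PDE7B was nearest to the threshold in these lists, with 24.6, 43.1 and 55.2 CPM in Rhino 1 against 156, 151 and 136 CPM in Rhino 2 (1.97 ± 0.33, adjusted p = 0.0561). PDE8A stood at 37.3 to 59.7 and 41.2 to 51.9 CPM (-0.05, adjusted p = 0.995, all edgeR). These were 2 of the 3 phosphodiesterase genes tested. The other, PDE8B, had 6.17, 31.2 and 8.28 CPM in Rhino 1 against 77.4, 22.7 and 55.6 CPM in Rhino 2. Its ranges overlapped (1.98 ± 0.78, adjusted p = 0.344, edgeR).

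Chaperones and exchange factors that act on G alpha without a receptor, like the GPSM proteins, had a median of -0.47 over 6 tested genes. RIC8A, the chaperone of several G alpha subunits, stood at 127 to 183 CPM in Rhino 1 against 62.5 to 103 CPM in Rhino 2 (-0.73 ± 0.26, adjusted p = 0.288, ranges apart). CCDC88A, which encodes girdin, stood at 64.2 to 109 and 42.7 to 82.7 CPM (-0.31, adjusted p = 0.879). Of the other GoLoco genes, RAP1GAP alone matched, with 3.54 CPM in Rhino 1 replicate 1 and 0 elsewhere. It had no opposite-strand model, so its 0 in the other libraries says little about its RNA. Of 14 matched names among the other RGS genes and their partners, 9 had no counts, 3 were tested and none passed. Only 4 of the 14 were modelled on both strands. For the rest, a 0 in libraries other than Rhino 1 replicate 1 says little about their RNA. RGS11, whose product pairs with a G beta subunit, stood at 10.5, 0 and 15.9 CPM in Rhino 1 against 24.3, 31.3 and 24.1 CPM in Rhino 2 (1.62 ± 1.21, adjusted p = 0.736, all edgeR).

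**Figure D5:**
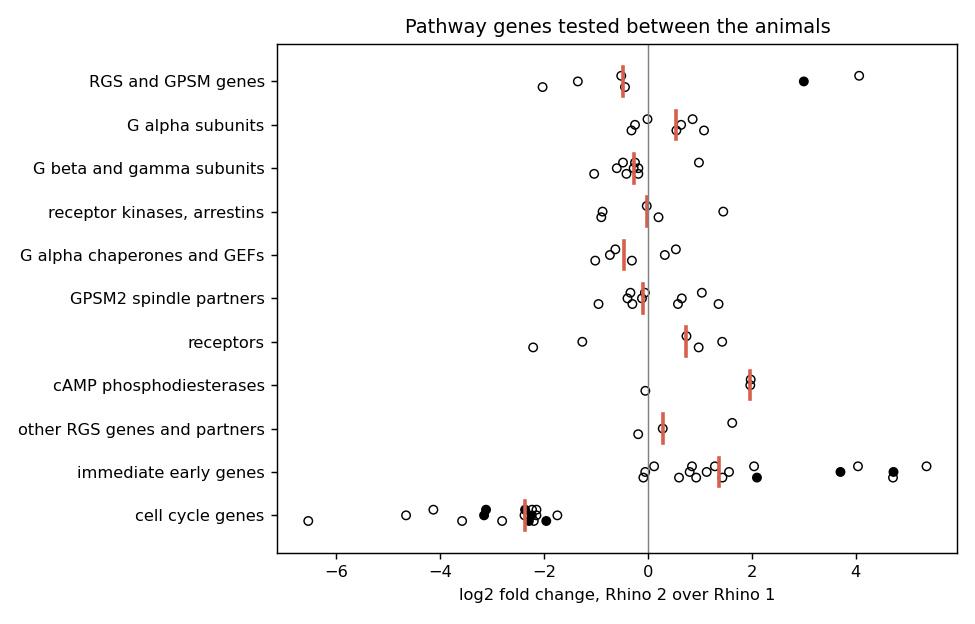
Log2 fold change (Rhino 2 over Rhino 1) of each tested gene in the set and in the pathway lists; filled points have an adjusted p under 0.05 and the coloured bar is the median of a list. The medians lay at -0.48 for the RGS and GPSM genes, at 1.36 for the immediate early genes and at -2.36 for the cell cycle genes.

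The genes whose levels ran most like those of GPSM1, GPSM2 and RGS2 were also looked up. They are given by their names in the annotation, which are UniProt-style entry names and not gene symbols. SYK, EST1 and UBP1, for example, need not be the genes with those symbols. Likeness was the Pearson correlation of log2(CPM + 1) over the 6 libraries, among 7615 named loci with a mean of at least 10 CPM, as a description only, since the libraries come from 2 animals and differ in depth. GPSM1 was most like XRN2 (0.996, a name on 7 loci), ZN131 (0.995) and TRIM8 (0.993), and 57 loci exceeded 0.95. For GPSM2 they were LOC000000061 (0.992), UBP1 (0.991) and THUM3 (0.991), with 50 loci above 0.95. For RGS2 they were EST1 (0.999, a name on 9 loci), SYK (0.992, on 2 loci) and CO4A4 (0.989), with 75 above 0.95. EST1 was at 10.6, 0 and 6.90 CPM in Rhino 1 against 127, 98.1 and 77.0 CPM in Rhino 2, so it shared the 0 of Rhino 1 replicate 2.

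The genes lay in part beside relatives. RGS16 was 40.1 kb from RGS8, and RGS2 stood at the end of a row with RGS13 (122 kb away), RGS1 (68.1 kb further) and RGS18 (332 kb further) on scaffold 36. GPSM1 and RGS3 shared scaffold 29 at a distance of 20205 kb.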

How the data were processed

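PicoPure RNA isolation and NEBNext Ultra II library preparation are given by the labels' protocols, and Trimmomatic, HISAT2 and StringTie by the submitters' processing notes. For their versions, the genome build and the strand setting, the sources used here state nothing. The authors deposited unnormalized read counts (whole numbers, per the file headers and values), in 5 files per transcript and in 1 (Rhino 2 replicate 1) per gene, with a table of transcript positions whose scaffold coordinates are used here.

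Transcript counts were summed to 40656 genes. An unnamed gene was joined to the gene on the other strand where their exons shared 50% or more of the shorter exonic length (bedtools 2.31.1), which left 25906 loci. CPM was computed from the deposited counts by library total. All p-values come from edgeR 4.0.16 in R 4.3.3 (TMM, filterByExpr, quasi-likelihood, two-sided, Benjamini-Hochberg over all loci tested), unless DESeq2 1.42.0 or limma-voom (limma 3.58.1) is named. The SE is the absolute log2 fold change over the square root of F. Share intervals are 95% Wilson intervals, and a count of 0 was bounded by 3 counts. Both cover counting error only, and not how reads that fit several models were divided between them. The scripts were tested on simulated data.

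Beside all genes of the set, the rule for naming took from each pathway list the genes past the threshold (up to 4 by fold change) or else the 2 with the highest mean CPM, the latter also from each marker list. Genes outside it (PDGFRB, CSPG4, NOTCH3, ABCC9, CNN1, CYP17A1, INSL3, AMH, CYP19A1, INHBA, INHBB, GNAS, PARD3, AFDN, PDE8B, RGS9, RGS9BP and the neighbours by position) were named after their values were seen. The members and lists were chosen with earlier results of these data known. No nucleotide or protein sequences were used here. The summary of 1 pathway list, that of G protein effectors, is not reported here.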

Additional observations from a re-analysis of the deposited data

How the results depend on the processing

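No tested gene of the set reversed its direction under any of 15 alternatives. GPSM1 lost its call under 8 of them: each of the 6 left-out libraries, the replicate number as a block (adjusted p = 0.246) and, added after the data were seen, unnamed genes of opposite strands not joined to each other (adjusted p = 0.0573). RGS2 gained a call under 4, named in the report, so 2 genes of the set passed with no filter, with DESeq2, with limma-voom and with loci modelled on both strands only. None passed with the block (2 at an unadjusted p under 0.05, edgeR), with those unnamed genes not joined (4 unadjusted) or with any library left out (0 in each, 2 to 3 unadjusted), against 4 unadjusted in the report's fit and 2 adjusted calls by DESeq2. Of all loci tested, 10.5%, 12.2% and 8.21 to 14.3% had an unadjusted p under 0.05 (edgeR) in those settings. In the report's fit 12.9% did. RGS3, RGS5, RGS12 and GPSM2 stayed short of the threshold under all 15.

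Loci called moved from 47 to 353 with no filter, 26 at a mean of 5 CPM, 626 with DESeq2, 762 with limma-voom (618 higher in Rhino 2 and 144 higher in Rhino 1, against 21 and 26), 132 with loci on both strands, 84 with strands joined at any overlap, 19 with unnamed genes not joined, 0 with the replicate block (893 unadjusted) and 0 to 49 with a library left out. Pathway genes called moved from 9 to 27, 4, 32, 19, 14, 4 and 0 under no filter, 5 CPM, DESeq2, limma-voom, both strands, not joined and the block, and to 0 to 7 with a library left out. Without the filter the median log2 fold change of all loci was -0.49 instead of 0.04. Deviations of same-numbered libraries correlated at 0.207, 0.124 and 0.00575, and those of differently numbered libraries at -0.173 to 0.00811. These values do not settle whether the numbers mark pairs. In the report's fit they were not taken as pairs, and they entered only as the block given above. In the order of levels per kb, RGS3 came before RGS2 without any 1 library of Rhino 2, and RGS5 came second over the longest annotated transcript. The causes of these shifts were not tested. Low counts limit what can be said of RGS10 and RGS16, with 1 count worth up to 1.49 CPM. The lack of a joined opposite-strand model limits RGS19 in 5 libraries.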

Other observations

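Of the RGS genes outside the set, RGS1 and RGS18, both known from leukocytes, had counts in Rhino 1 replicate 1 alone, at 16.9 and 1.43 CPM. Neither had an opposite-strand model, so their 0 in the other 5 libraries says little about their RNA. RGS9BP, which encodes an anchor protein of RGS9 in the retina, had 13.6, 2.97 and 17.9 CPM in Rhino 1 against 13.1, 5.68 and 10.2 CPM in Rhino 2 (adjusted p = 0.994, edgeR). RGS9 itself was at 0 in all 6 libraries and had no opposite-strand model.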
